A study of Rattus norvegicus with 10 samples.

Results

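The genes described here are 10 enzymes that clear superoxide and peroxides, taken by symbol from a table of RNA levels in rat kidney cortex. They are the superoxide dismutases Sod1, Sod2 and Sod3, catalase (Cat), the glutathione peroxidases Gpx1, Gpx3 and Gpx4 and the peroxiredoxins Prdx1, Prdx2 and Prdx6. Each symbol matched 1 row, so the set is 10 of the 32545 genes in the table, and all 10 passed the filter of a mean FPKM of at least 0.5 (14508 genes did). FPKM is fragments per kilobase of transcript, scaled to library size, so levels can be set side by side between genes.

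The oxonic acid group was Dahl salt-sensitive rats (strain SS/JrHsdMcwi, labelled wildtype) that ate 4% NaCl and 2% oxonic acid for 3 weeks (5 libraries). The vehicle group, of the same strain, ate 4% NaCl without it for the same time (5 libraries). All animals had telemeters placed at 8 to 9 weeks of age and stayed on 0.4% NaCl through 4 days of blood pressure recording before the change of diet, and their kidneys were flushed with PBS at the end. High salt is common to all 10 libraries. Oxonic acid inhibits uricase, the enzyme that breaks down urate in rodents, and the comparison asks which transcripts differ when urate breakdown is blocked under a salt load. The strain gains blood pressure on a salty diet, so the vehicle group is itself a model of hypertension and not a healthy baseline.

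Superoxide dismutases turn superoxide into hydrogen peroxide, and catalase, glutathione peroxidases and peroxiredoxins then reduce the peroxide. Catalase works in peroxisomes without a separate reducing partner, glutathione peroxidases use glutathione, and most peroxiredoxins are recycled by thioredoxin. Gpx1, Gpx3 and Gpx4 carry selenocysteine at the active site. The kidney is the main source of the Gpx3 protein in blood plasma, and proximal tubule cells make it.

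Each library held 14.5 M to 18.5 M reads assigned to genes (M, 1e6). The design names both sexes but no sample's sex, and 4 Y-linked genes were detected throughout, none lower than 0.723 of its median. Vehicle library 4 stood apart on the first principal component (39.8, against -13.7 to 15.5 in the other 9) and had the lowest share of mitochondrial reads, 9.23%. Early proximal tubule markers, which the cortical label calls for, summed to 3664 to 4404 FPKM on oxonic acid and 3201 to 4203 FPKM on vehicle, and podocyte markers to 102 to 139 FPKM on oxonic acid and 98.0 to 141 FPKM on vehicle. Principal cell markers of the collecting duct, higher in 6 of 6 cases, summed to 341 to 452 FPKM on oxonic acid and 254 to 352 FPKM on vehicle. Markers were also higher in 5 of 5 tested cases for distal convoluted tubule and 6 of 7 for thick ascending limb. They were higher in 6 of 7 for endothelial cells, 5 of 6 for podocytes and 8 of 10 for early proximal tubule. For smooth muscle and fibroblasts 4 of 9 were higher, and for macrophages 0 of 8. Over all genes tested 48.2% were lower. The part of these markers in the results was not tested. The labels do not tie each library to its own rat, so p-values measure the spread between these libraries, part of which may be technical. Each sample is a bulk extract, in which fewer cells of a type and less RNA per cell cannot be told apart.

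None of the 10 transcripts passed the test between the diets. In limma's test on log2(FPKM + 0.5), fitted over all 14508 genes, 0 of the 10 had an adjusted p under 0.05, where the share over all genes tested was 0.00% (0 genes). At an unadjusted p under 0.05 the count was also 0 of 10, beside 9.49% of all genes tested (1377 genes). By limma's voom fit on the recovered reads, 0 of the 10 passed at either threshold. Over all 14508 genes that fit gave 0 at the adjusted threshold and 1414 at the unadjusted one. For 6 of the 10 the log2 difference was below 0, beside 48.2% of all genes tested, and in 0 of the 10 did the groups fail to overlap, beside 1.91%. The median log2 difference was -0.036 over the 10 and 0.0053 over all genes tested, and the differences of the 10 ran from -0.12 (Gpx1) to 0.14 (Cat).

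Sod2 had the narrowest bounds among the 10, with a 95% interval of the fold (oxonic acid over vehicle) from 0.969 to 1.11. The interval was 0.941 to 1.15 for Sod1, 0.829 to 1.08 for Sod3 and 0.968 to 1.26 for Cat. It was 0.789 to 1.08 for Gpx1, 0.859 to 1.02 for Prdx1, 0.845 to 1.08 for Prdx2 and 0.897 to 1.11 for Prdx6. Gpx3 was the least bounded of the abundant transcripts, at 0.764 to 1.25. All 10 intervals include 1, which does not show that the diets act alike.

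**Figure D1:**
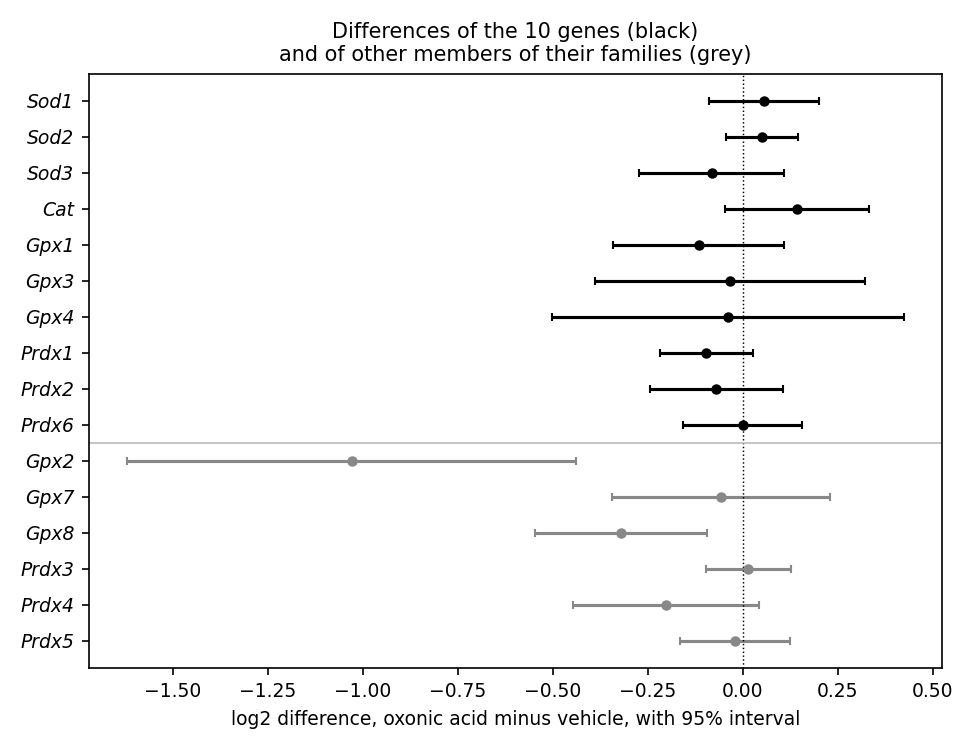
Log2 difference (oxonic acid minus vehicle) on the horizontal axis, with its 95% interval, for the 10 genes in black and the other measured glutathione peroxidases and peroxiredoxins in grey. All 10 black intervals include 0, and the lowest grey point is Gpx2 at -1.03.

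The levels of the 10 spanned a wide range and were led by Gpx3, which encodes the secreted glutathione peroxidase. Gpx3 averaged 13956 FPKM over the 10 libraries and ranked number 4 of the 32545 genes, taking 2.33% of all FPKM and 78.5% of the sum of the 10. Gpx1 (1116 FPKM) and Sod1 (1041 FPKM) followed, then Prdx1 (435 FPKM), Cat (400.4 FPKM), Sod3 (248 FPKM), Prdx2 (202 FPKM), Prdx6 (159.8 FPKM) and Sod2 (151 FPKM). Gpx4 came last at 0.656 FPKM, a value treated separately below. The steps from Gpx3 to Gpx1 (12.5-fold), from Sod1 to Prdx1 (2.39-fold), from Cat to Sod3 (1.62-fold) and from Prdx2 to Prdx6 (1.26-fold) were larger than the spread, since no library of the upper gene lay below any library of the lower gene. The ranges of Sod2 and the uncertain Gpx4 row also lay apart, and in the remaining neighbouring pairs the ranges overlapped. Within the same library Sod3 was above Prdx2 in 9 of 10 libraries, Prdx6 above Sod2 in 8, Gpx1 above Sod1 in 7 and Prdx1 above Cat in 6.

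**Figure D2:**
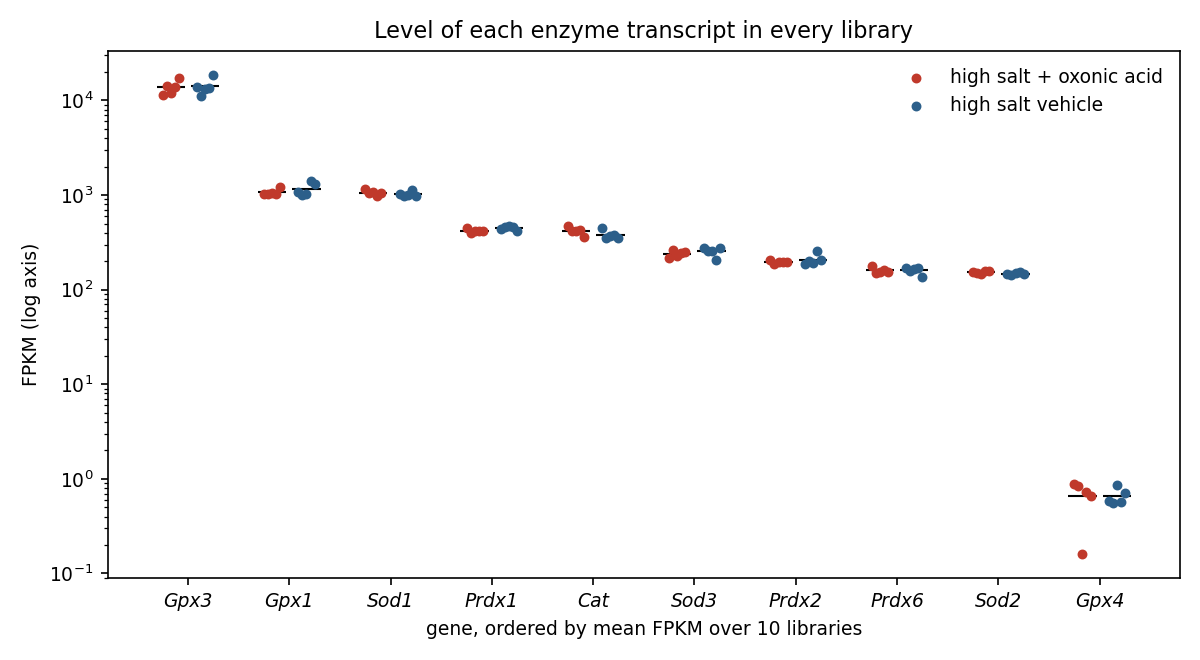
FPKM on a log axis for each of the 10 genes, ordered by mean level, with 1 point per library, oxonic acid left (red) and vehicle right (blue), and a line at each group mean. Gpx3 lies at 11237 FPKM or more in all 10 libraries, and the row named Gpx4 at 0.884 FPKM or less.

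A pair of promoter windows is printed to show where the antioxidant response element, which the oxidant-responsive factor NRF2 binds, occurs among these genes. RefSeq windows (build GRCr8, 250 bases before to 50 bases after the start) were found by symbol for 8 of the 10 genes, 10 windows in all because Gpx4 has 3. The motif TGACNNNGC, the core of that element, was searched on both strands, and 2 of the 8 genes (2 of the 10 windows) held it, Prdx1 and Sod2. Of all 33469 windows of that length, 12.1% held it. Capitals mark the match, which lies on the reverse strand in both, at -135 to -127 from the start in Prdx1 (chr5:135383656-135383955, plus strand) and at -35 to -27 in Sod2 (chr1:50050119-50050418, minus strand).
Prdx1: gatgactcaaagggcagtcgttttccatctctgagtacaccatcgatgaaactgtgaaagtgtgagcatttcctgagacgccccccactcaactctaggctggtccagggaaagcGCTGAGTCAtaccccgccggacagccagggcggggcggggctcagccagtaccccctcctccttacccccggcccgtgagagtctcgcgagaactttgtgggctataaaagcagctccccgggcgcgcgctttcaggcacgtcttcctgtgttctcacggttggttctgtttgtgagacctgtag
Sod2: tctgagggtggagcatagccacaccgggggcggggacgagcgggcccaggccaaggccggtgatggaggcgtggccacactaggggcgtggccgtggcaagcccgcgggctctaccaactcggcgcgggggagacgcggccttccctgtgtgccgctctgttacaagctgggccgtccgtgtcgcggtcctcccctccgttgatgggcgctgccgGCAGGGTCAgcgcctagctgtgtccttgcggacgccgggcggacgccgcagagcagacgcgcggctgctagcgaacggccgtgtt
A match describes letters and not a bound site. The pair of genes that hold it had log2 differences of -0.095 (Prdx1) and 0.051 (Sod2), neither past the test. The letters TATAAA, the core of the TATA box, were found in 2 of the 8 genes, Sod1 (-28 to -23 from the start) and Prdx1 (-32 to -27). That is 2 of the 10 windows, beside 14.2% of all windows. These 2 motifs do not overlap in the Prdx1 window.

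Among the superoxide dismutases, Sod1 and Sod2 had slightly higher means and Sod3 a slightly lower mean on oxonic acid, none past the test. In the coordinates of the table, whose build the sources used here do not name, Sod1 (ENSRNOG00000002115) lies on chromosome 11 from 30363280 to 30368862, Sod2 (ENSRNOG00000019048) on chromosome 1 from 47914759 to 47921587 and Sod3 (ENSRNOG00000003869) on chromosome 14 from 60958592 to 60964324. Sod1, the copper and zinc enzyme of the cytosol, measured 1146, 1050.4, 1072, 982 and 1057 FPKM in oxonic acid libraries 1 to 5, against 1019, 975, 1003, 1138 and 969 FPKM in vehicle libraries 1 to 5. The groups overlapped, since vehicle library 4 lay above 4 of the oxonic acid libraries. Its means were 1061 ± 58.6 FPKM on oxonic acid and 1021 ± 68.7 FPKM on vehicle (SD, n = 5 each), a log2 difference of 0.057 (SE 0.066; adjusted p = 0.795 by limma).

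Sod2, the manganese enzyme of the mitochondrial matrix, was the steadiest of the 10, with a coefficient of variation of 3.61% over all libraries. It measured 153, 151, 146, 159 and 159 FPKM in oxonic acid libraries 1 to 5 and 146, 144, 151, 155 and 145 FPKM in vehicle libraries 1 to 5. The groups overlapped, with oxonic acid libraries 1, 2 and 3 among the vehicle values. Its means of 153.6 ± 5.39 FPKM on oxonic acid and 148 ± 4.48 FPKM on vehicle (SD, n = 5 each) gave a log2 difference of 0.051 (SE 0.043; adjusted p = 0.722 by limma). The share of reads on the mitochondrial genome itself ran from 11.6% to 13.5% on oxonic acid and from 9.23% to 12.1% on vehicle, and its part in the Sod2 values was not tested.

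Sod3, the secreted dismutase that binds to the surface of cells and vessels, measured 217, 262, 225, 246 and 251 FPKM in oxonic acid libraries 1 to 5, against 278, 256, 256, 208 and 277 FPKM in vehicle libraries 1 to 5. Vehicle library 4 was the lowest of all 10, and the other 4 vehicle libraries lay above 4 of the 5 oxonic acid libraries. The log2 difference was -0.082 (SE 0.086; adjusted p = 0.772 by limma), and it was -0.15 without vehicle library 4 (limma adjusted p = 0.527). Of the summed FPKM of the 3 dismutases, Sod1 took 72.9% ± 1.97 on oxonic acid and 71.6% ± 2.43 on vehicle, and Sod3 took 16.5% ± 1.54 on oxonic acid and 17.96% ± 2.40 on vehicle (SD, n = 5 each).

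Catalase, the peroxisomal enzyme that splits hydrogen peroxide, had the largest positive difference of the 10. Its gene (ENSRNOG00000008364) lies on chromosome 3 from 93379874 to 93412058 in the same coordinates. Cat measured 476, 416, 421, 428 and 360.2 FPKM in oxonic acid libraries 1 to 5, against 446, 355, 371, 382 and 349 FPKM in vehicle libraries 1 to 5. The groups overlapped at both ends: vehicle library 1 was above 4 oxonic acid libraries, and oxonic acid library 5 was below 3 vehicle libraries. The means were 420.2 ± 41.1 FPKM on oxonic acid and 381 ± 39.0 FPKM on vehicle (SD, n = 5 each), a log2 difference of 0.14 (SE 0.086; adjusted p = 0.603 by limma; two-sided exact permutation p = 0.159, unadjusted). Markers of the last proximal tubule segment, S3, were higher in 5 of 6 cases without 1 passing the test, and they summed to 2101 to 3432 FPKM on oxonic acid and 1182 to 2488 FPKM on vehicle. Most of that sum was Slc3a1 and Slc7a13, which averaged 1274 and 901 FPKM over all libraries. Vehicle library 5, lowest for Cat, was also lowest for the S3 markers as a list. The part of the S3 markers in the Cat values was not tested.

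The list of peroxisome genes, the organelle that houses catalase, had 14 of 19 tested members higher and 5 lower, 0 of them past the test. Its median log2 difference was 0.072, against 0.0053 over all genes tested.

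Of the glutathione peroxidases, Gpx1 and Gpx3 had slightly lower means on oxonic acid, neither past the test. Gpx1 (ENSRNOG00000048812) lies on chromosome 8 from 117117430 to 117118522 and Gpx3 (ENSRNOG00000052564) on chromosome 10 from 40247436 to 40255422. Gpx1, the cytosolic enzyme, measured 1025, 1019.9, 1055, 1026 and 1212 FPKM in oxonic acid libraries 1 to 5, against 1074, 1014, 1026, 1395 and 1313 FPKM in vehicle libraries 1 to 5. Vehicle libraries 4 and 5 were the highest 2 of the 10 and oxonic acid library 5 came next, while the other 7 lay between 1014 and 1074 FPKM. The log2 difference was -0.12 (SE 0.10; adjusted p = 0.731 by limma), and it turned to 0.037 without vehicle libraries 4 and 5.

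Gpx3, whose protein is released to plasma and the basement membrane, measured 11531, 14100, 12107, 13986 and 17091 FPKM in oxonic acid libraries 1 to 5, against 14017, 11237, 13125, 13645 and 18722 FPKM in vehicle libraries 1 to 5. The highest library of each group was its number 5, and the highest value was 1.67 times the lowest. Means were 13763 ± 2177 FPKM on oxonic acid and 14149 ± 2771 FPKM on vehicle (SD, n = 5 each), a log2 difference of -0.033 (SE 0.16; adjusted p = 0.963 by limma). Depth did not limit this value, since each library held 268890 to 443557 reads of Gpx3. The sum of the 10 enzymes followed Gpx3, at 17483 ± 2183 FPKM on oxonic acid and 17936 ± 2844 FPKM on vehicle, and without Gpx3 it was 3720 ± 103 FPKM on oxonic acid and 3787 ± 231 FPKM on vehicle (SD, n = 5 each).

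**Figure D3:**
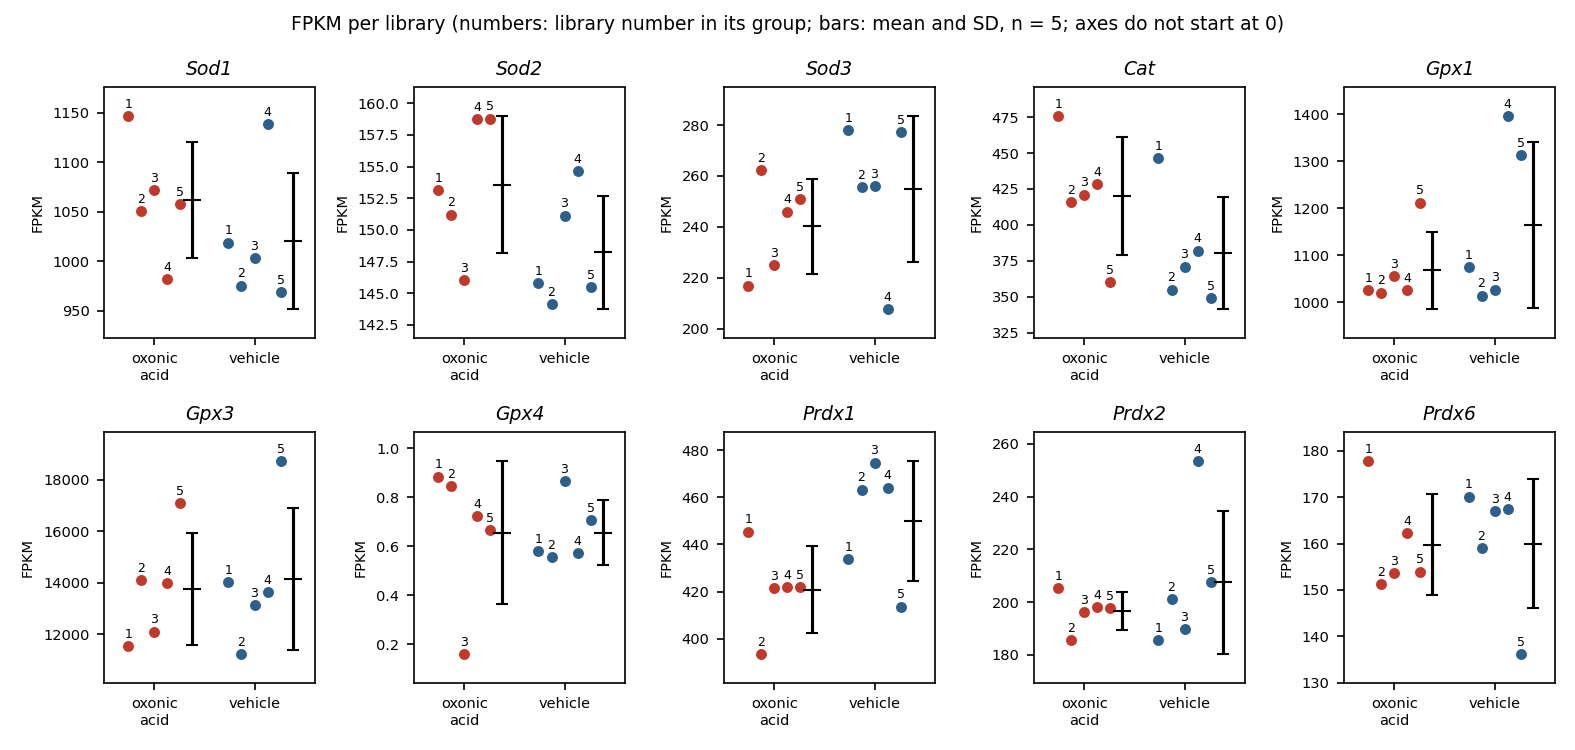
FPKM of each gene in every library, 1 panel per gene with its own axis, oxonic acid left (red) and vehicle right (blue), numbered by library, with the mean and SD of 5 libraries. In all 10 panels the groups overlap, and vehicle library 4 is the highest for Gpx1 and Prdx2 and the lowest for Sod3.

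The row of Gpx4 held almost no reads. Gpx4 reduces lipid peroxides in membranes and guards cells against ferroptosis, and in mice its loss in adults leads to kidney failure. The table nevertheless listed it with 16, 14, 3, 15 and 11 reads in oxonic acid libraries 1 to 5 and 11, 12, 16, 10 and 13 reads in vehicle libraries 1 to 5. In FPKM these were 0.884, 0.846, 0.161, 0.724 and 0.666 on oxonic acid, against 0.581, 0.555, 0.867, 0.571 and 0.707 on vehicle. The groups overlapped, oxonic acid library 3 was lowest, and the log2 difference was -0.039 (SE 0.21; adjusted p = 0.965 by limma) on a scale where the added 0.5 understates changes at such levels. With 3 to 16 reads per library the 95% interval of the fold was wide, 0.706 to 1.34, on that scale.

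The position of the gene may limit what the row measures, which was not tested. In the table Gpx4 (ENSRNOG00000013604, 1139 bp of exons) lies on chromosome 7 from 12516357 to 12519154 on the minus strand, in the table's own coordinates. Sbno2 (ENSRNOG00000013987) lies on the opposite strand from 12471824 to 12518654 and covers 82.1% of the Gpx4 span, all but the 500 bp at its 5′ end. Those spans hold introns as well as exons, and overlap between exons was not computed. Sbno2 itself averaged 10.3 FPKM. The protocol text covers both stranded and unstranded libraries, and the sources used here do not say whether strand entered the counting. If it did not, reads of the pair cannot be told apart where their exons overlap. Whether reads in the shared stretch went uncounted was not tested. The Gpx4 row is therefore uncertain and is not read here as a low level of the transcript. Prdx6 is the only other of the 10 that overlaps a gene in the table, Slc9c2 on the opposite strand over 21.6% of its span, and Slc9c2 averaged 0.0505 FPKM.

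**Figure D4:**
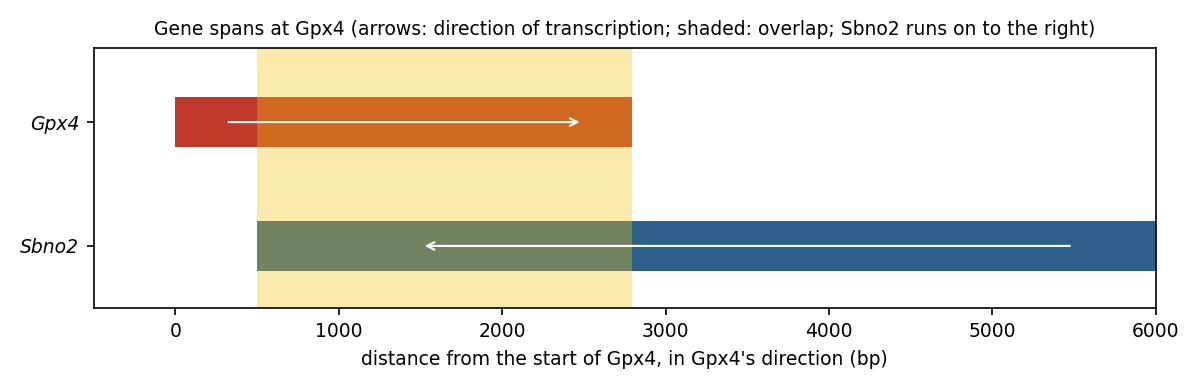
Spans of Gpx4 and Sbno2, introns included, by distance in bp from the start of Gpx4, with arrows for the direction of transcription. The shaded overlap covers 2298 of the 2798 bp of Gpx4 and leaves the first 500 bp free.

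The peroxiredoxins, the peroxidases with a reactive cysteine in place of selenocysteine, had log2 differences from -0.095 to 0.00027, none past the test. Prdx1 (ENSRNOG00000017194) lies on chromosome 5 from 135536413 to 135551990, Prdx2 (ENSRNOG00000003520) on chromosome 19 from 26084903 to 26090094 and Prdx6 (ENSRNOG00000002896) on chromosome 13 from 79077033 to 79088127. Prdx1, a cytosolic enzyme, measured 445, 394, 422, 422 and 422 FPKM in oxonic acid libraries 1 to 5, against 434, 463, 475, 464 and 414 FPKM in vehicle libraries 1 to 5. Vehicle libraries 2, 3 and 4 lay above all 5 oxonic acid libraries, and vehicle libraries 1 and 5 lay among them. Means were 421 ± 18.4 FPKM on oxonic acid and 449.9 ± 25.4 FPKM on vehicle (SD, n = 5 each). The log2 difference was -0.095 (SE 0.056; adjusted p = 0.597 by limma), and the two-sided exact permutation p of 0.0714, unadjusted, was the smallest of the 10.

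Prdx2, abundant in red blood cells as well as in cytosol elsewhere, measured 205, 186, 196, 198 and 198 FPKM in oxonic acid libraries 1 to 5, against 186, 201.1, 189.8, 253 and 207 FPKM in vehicle libraries 1 to 5. Without vehicle library 4, the highest, the vehicle libraries covered the range of the oxonic acid ones, and the log2 difference of -0.069 (SE 0.079; adjusted p = 0.794 by limma) turned to 0.0052. Erythroid markers summed to 67.6 to 275 FPKM on oxonic acid and 70.1 to 147 FPKM on vehicle, and as a list were highest in oxonic acid library 5. That sum includes Slc4a1, which is also on the list of intercalated cell markers. Slc4a1 alone ran from 36.6 to 43.5 FPKM on oxonic acid and from 19.3 to 37.3 FPKM on vehicle. The part of the erythroid markers in the Prdx2 values was not tested. Prdx6, which has 1 active cysteine and also acts on phospholipids, measured 178, 151, 154, 162 and 154 FPKM in oxonic acid libraries 1 to 5, against 170.1, 159, 167, 167 and 136 FPKM in vehicle libraries 1 to 5. Neither group stood above the other: the highest library was oxonic acid library 1 and the lowest vehicle library 5. Its means of 159.7 ± 10.9 FPKM on oxonic acid and 159.9 ± 13.9 FPKM on vehicle (SD, n = 5 each) gave a log2 difference of 0.00027 (SE 0.071; adjusted p = 0.999 by limma).

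The rest of both peroxidase families was read from a list that does not hold the 10. Of its 8 genes, 6 passed the filter, 5 of them lower and 1 higher on oxonic acid, 0 past the test and 2 (both lower) at an unadjusted p under 0.05, with a median log2 difference of -0.13. Gpx2, the glutathione peroxidase best known from gut epithelium, was listed at 7.44, 10.3, 15.7, 14.4 and 18.8 FPKM in oxonic acid libraries 1 to 5, against 20.1, 37.0, 22.9, 38.6 and 19.4 FPKM in vehicle libraries 1 to 5. The groups did not overlap, but the difference of -1.03 (log2, SE 0.27) did not pass over all genes (limma adjusted p = 0.334). Gpx8, an enzyme of the endoplasmic reticulum, averaged 7.22 ± 0.547 FPKM on oxonic acid and 9.21 ± 1.45 FPKM on vehicle (SD, n = 5 each; limma adjusted p = 0.396). The mitochondrial Prdx3 and the widely placed Prdx5 had log2 differences of 0.015 and -0.020, at 147.8 and 264 FPKM over all libraries. Markers of tubular injury, lower in 9 of 10 tested cases, summed to 976 to 1829 FPKM on oxonic acid and 1669 to 3851 FPKM on vehicle. Most of that sum was Spp1, which averaged 1517 FPKM over all libraries. Macrophage markers, lower in 8 of 8, summed to 127 to 166 FPKM on oxonic acid and 164 to 218 FPKM on vehicle. At an unadjusted limma p under 0.05, 8 of the 10 injury markers and 4 of the 8 macrophage markers were lower. Over all genes tested 9.49% were at that level in either direction and 48.2% were lower. None of these markers passed the adjusted test. The part of either marker list in the Gpx2 and Gpx8 values was not tested.

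Of 18 genes for thioredoxin, glutaredoxin and glutathione reduction, 10 were higher and 8 lower, 0 past the test and 1 (lower) at an unadjusted p under 0.05 (median log2 difference 0.029). Glrx, the glutaredoxin of the cytosol, averaged 9.14 ± 1.47 FPKM on oxonic acid and 12.0 ± 1.41 FPKM on vehicle (SD, n = 5 each; limma adjusted p = 0.370). Gsr, which reduces glutathione, and the thioredoxin reductase gene Txnrd1 had log2 differences of 0.10 and 0.098 (limma adjusted p of 0.599 and 0.541). All 3 tested genes of glutathione synthesis were higher, 0 past the test (median 0.245). Gclc, the catalytic subunit of its limiting enzyme, averaged 1797 ± 431 FPKM on oxonic acid and 1443 ± 483 FPKM on vehicle (SD, n = 5 each; limma adjusted p = 0.680), and its vehicle library 5 was at 599.7 FPKM against 1481 to 1749 FPKM in the other 4. The Gclc log2 difference of 0.38 was 0.089 without vehicle library 5 and 0.037 without vehicle libraries 4 and 5. The genes of glutathione synthesis and the S3 markers given beside Cat were both highest in oxonic acid library 1 and lowest in vehicle library 5, and the part of the S3 markers in the Gclc values was not tested.

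Supply of copper, manganese and selenium was covered by 15 tested genes, 13 higher and 2 lower, 0 past the test (median log2 difference 0.063). Lrp2, the receptor that takes up selenoprotein P in the proximal tubule, had the smallest p there, at 269 ± 22.5 FPKM on oxonic acid and 243 ± 28.9 FPKM on vehicle (SD, n = 5 each; limma adjusted p = 0.598). Of 11 other selenoprotein genes, 4 were higher and 7 lower, 0 past the test and 1 (lower) at an unadjusted p under 0.05 (median -0.021). Among them Selenoh, a nuclear selenoprotein whose row was matched through a RefSeq synonym, averaged 79.5 ± 8.88 FPKM on oxonic acid and 102 ± 11.5 FPKM on vehicle (SD, n = 5 each; limma adjusted p = 0.333), and its groups overlapped.

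Variation across libraries was compared between the enzymes. Of 45 pairs, 25 had a positive Pearson r of log2(FPKM + 0.5) over the 10 libraries, and 0 passed in a permutation test (100000 resamples, two-sided) adjusted over the 45 pairs, for Pearson's r or for Spearman's rho. The pair with the smallest p was Sod1 with Sod3, with r = -0.81 (permutation p = 0.00539, adjusted p = 0.243) and rho = -0.67 (permutation p = 0.0393, adjusted p = 0.597). Without the 2 libraries farthest from the Sod1 median r was -0.48. Gpx1 with Prdx2 had r = 0.75 (permutation p = 0.0141, adjusted p = 0.317) and rho = 0.28 (permutation p = 0.427, adjusted p = 0.903), but r was 0.0091 without the 2 libraries farthest from the Gpx1 median, so that relation rests on those libraries.

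The genes most like each enzyme in pattern were taken as those with the highest Pearson r over the 10 libraries among 12803 named genes, as a description, since a search that wide returns high values for any gene. Gpx3 was nearest to Igsf9 (r = 0.98, rho = 0.95) and to Phgdh (r = 0.97, rho = 0.89), which encodes a serine synthesis enzyme. Gpx1 was nearest to Chmp6 (r = 0.98, rho = 0.76), Prdx2 to the GTPase gene Rac1 (r = 0.97, rho = 0.93) and Prdx6 to Abhd14b (r = 0.96, rho = 0.87). Cat was nearest to Ctage5 (r = 0.94, rho = 0.90) and Sod2 to Mtmr14 (r = 0.95, rho = 0.89). Prdx1, Sod3 and Sod1 were nearest to Cldnd1, Rundc3b and Sertad4, with r of 0.94, 0.92 and 0.92.

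The libraries carry numbers that form 3 consecutive runs, which the labels do not call batches. The lowest run holds 3 oxonic acid libraries and 0 vehicle libraries, so no difference can be had within it. Within the middle run (1 oxonic acid and 3 vehicle libraries) the log2 differences were -0.025 for Sod1, 0.11 for Sod2, -0.096 for Sod3, 0.14 for Cat, -0.017 for Gpx1, 0.13 for Gpx3, 0.078 for Gpx4, -0.11 for Prdx1, 0.045 for Prdx2 and -0.027 for Prdx6. Within the highest run (1 oxonic acid and 2 vehicle libraries) they were 0.010 for Sod1, 0.082 for Sod2, 0.063 for Sod3, -0.020 for Cat, -0.16 for Gpx1, 0.097 for Gpx3, 0.036 for Gpx4, -0.055 for Prdx1, -0.21 for Prdx2 and 0.028 for Prdx6. Prdx1 and Gpx1 were below 0 and Sod2 above 0 in both runs as over all libraries. Sod1, Sod3, Cat, Prdx2 and Prdx6 had opposite signs in the 2 runs, and Gpx3 and Gpx4 were above 0 in both runs but below 0 over all libraries.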

How the data were processed

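RNA of kidney cortex was extracted with Trizol, selected on poly-T beads and sequenced on Illumina instruments, per the labels' protocols. The submitters' processing notes name featureCounts 1.5.0-p3, HISAT2 2.0.5, StringTie 1.3.3b and fastp. Build, annotation and strand setting: not given in the sources used here. The authors deposited 1 table of FPKM per gene and library. Multiplied by gene length and a constant per library, FPKM gave back whole reads (tolerance 0.01, met by 100% of values), and the median ratio to the geometric mean was 1.00 in all 10 libraries, so a median-ratio scaling is already in the values. FPKM is relative: a change in abundant transcripts shifts the rest.

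Columns were matched to samples by library name and grouped by treatment label. The 14508 genes that averaged 0.5 FPKM or more were tested on log2(FPKM + 0.5) with limma 3.58.1 in R 4.3.3 (mean-variance trend), oxonic acid against vehicle, two-sided, Benjamini-Hochberg over all genes, threshold 0.05. Where depth limits a value, 3 reads were used as the floor (0.139 to 0.182 FPKM for Gpx4), and it covers counting error only. Simulated data of 14508 genes for this comparison held planted changes, with the noise of each gene drawn independently. There the test called 55.8% of genes changed 1.5-fold, 78.8% changed 2-fold, 91.8% changed 4-fold and 0.0685% of unchanged genes. Planted changes ease the adjusted threshold, and in the real data 0 genes passed it. These shares therefore do not give the power of the test for the 10 enzymes. No pair of libraries agreed within sampling noise (lowest chi-square per degree of freedom 4.79 over 45 pairs).

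Named genes are the 10 enzymes, and from each other pathway list up to 4 genes with an unadjusted p under 0.05 or, failing that, the 1 of lowest p; Gsr, Txnrd1, Prdx3 and Prdx5 were added after their values were seen. The gene this rule takes from the peroxisome list is not reported here. The members and lists were chosen with earlier results of these data known. Of 189 list entries, 170 matched by symbol and 12 by a RefSeq synonym. Promoters are RefSeq, build GRCr8. Permutations used scipy 1.17.1 and figures matplotlib 3.10.9 in Python 3.11.15. Alternatives tried were other pseudocounts, filters and scalings, voom on recovered reads, quality weights, blocks and left-out libraries.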

Additional observations from a re-analysis of the deposited data

Results flagged for a closer look

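Of 38 groups of 5 examined, 3 held a library far from its group by Dixon's ratio, and chance flags about 1 in 20 groups. Gpx1 in oxonic acid library 5 stood at 1212 FPKM, against 1019.9 to 1055 FPKM in the other 4. Gclc in vehicle library 5 stood at 599.7 FPKM, against 1481 to 1749 FPKM in the other 4. The mitochondrial share of reads in vehicle library 4 was 9.23%, against 11.3% to 12.1% in the other 4.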

How the results depend on the processing

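Under each of 21 alternatives (20 for Gpx4, which a filter of 1 FPKM removes) 0 of the 10 enzymes passed over all genes, with lowest adjusted p of 0.418 (Cat) and 0.430 (Prdx1). Cat, Sod2, Sod3 and Prdx1 kept their direction in all 21, and Gpx2 ran from -1.17 to -0.68. The -0.68 came with the number runs as a block, where the unadjusted limma p of Gpx2 was 0.0764, against 0.00275 in the main fit. The number of the 10 at an unadjusted p under 0.05 went from 0 to 1 with TPM scaling and with quality weights (Prdx1 in both), and ran from 0 to 1 with a library left out, the 1 being Cat without oxonic acid library 5 or vehicle library 1, Sod3 without vehicle library 4 and Prdx1 without vehicle library 5. All genes past the adjusted threshold numbered 1 with quality weights and 0 to 1 with a library left out (1 without vehicle library 1). Directions turned for 6 of the 10. Prdx6 was -0.024 with TPM scaling, -0.011 with reads outside the mitochondrial genome, -0.034 with quality weights, -0.0014 with the number runs as a block, -0.052 without vehicle libraries 4 and 5, and -0.056 to 0.024 with a library left out (below 0 without oxonic acid library 1 or 4 or vehicle library 2 or 5). Gpx3 was 0.0066 with quality weights, 0.12 with the number runs as a block, 0.098 without vehicle libraries 4 and 5, and -0.11 to 0.073 with a library left out (above 0 without oxonic acid library 1 or 3 or vehicle library 5). Prdx2 was 0.0015 with quality weights, 0.033 without vehicle libraries 4 and 5, and -0.11 to 0.0052 with a library left out (above 0 without vehicle library 4). Gpx1 was 0.037 without vehicle libraries 4 and 5. With the number runs as a block Sod1 was -0.0082 and Gpx4 0.058, and Gpx4 ran from -0.12 to 0.15 with a library left out (above 0 without oxonic acid library 3 or vehicle library 3). The cause was not tested. Replicate numbers share nothing in the labels beyond the number: deviations of same-numbered libraries correlated at -0.013 to 0.20, and with them as a replicate block 1 of the 10 (Cat) had an unadjusted p under 0.05 and 0 passed. Depth limits Gpx4 alone among the 10.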
